A study of Mus musculus with 203 samples.

Results

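The libraries described here are those of the lung parenchyma of mice that inhaled cigarette smoke without allergen, set against those of mice that breathed normal air. They were taken by the titles of the samples, as the 10 parenchyma libraries of the PBS.CS group at 11 weeks and the 10 of the PBS.AIR group at 11 weeks, 20 of the 160 libraries of the series taken at 11 weeks. All came from female Balb/C mice aged 18 to 20 weeks. The PBS.CS group received smoke (CS) 2 times a day on 5 days a week for 8 weeks, from week 4 to week 11, and in the PBS.AIR group the mice breathed normal air (AIR) over those weeks. Mice of both groups received intranasal phosphate buffered saline (PBS), the vehicle of the house dust mite (HDM) extract that other groups received. The parenchyma, the gas-exchanging tissue left after the conducting airways are removed, was separated from the airway by blunt dissection, and total RNA was sequenced. Where the smoke effect was compared with others, the comparison groups were airway tissue of PBS.CS and PBS.AIR mice, parenchyma of PBS.CS.DEX and PBS.AIR.DEX mice, treated with dexamethasone (DEX), a synthetic glucocorticoid, during week 11, and parenchyma of HDM.CS and HDM.AIR mice, given HDM extract in place of vehicle, with 10 libraries in each group. Whole parenchyma mixes epithelium, endothelium, fibroblasts and leukocytes, which limits every value to the tissue as a whole. Nothing in the sources used here states that each library is a separate mouse, so the tests measure the spread between libraries of a group. For each gene that spread was estimated over the 16 groups at 11 weeks, airway, DEX and HDM included, and not over these 20 libraries alone.

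Cigarette smoke carries polycyclic aromatic hydrocarbons and oxidants. The hydrocarbons bind the aryl hydrocarbon receptor, a transcription factor that with its partner ARNT induces cytochrome P450 genes of the CYP1 family, while oxidants release NRF2 from KEAP1 and so induce antioxidant genes. In the alveoli, macrophages engulf smoke particles and spent surfactant lipid, degrade them in lysosomes, and secrete chemokines and matrix proteases. Chronic exposure of mice is used as a model of chronic obstructive pulmonary disease.

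Levels are given as CPM (read counts scaled to a common library size), with the lowest, median and highest of the 10 libraries of a group. Total counts ran from 22011630 to 29773912 per library in PBS.AIR and from 23966697 to 33654831 in PBS.CS. By a score of airway less parenchyma markers, none of the 20 libraries, nor of the 20 airway libraries of the same exposures, went against its label. On the first principal component, which held 49.9% of the variance of the 500 most variable genes, the groups did not overlap (-26.87 to -10.13 in PBS.AIR and 9.753 to 27.82 in PBS.CS). Several libraries stood apart. PBS.AIR replicate 7 was the PBS.AIR library nearest to the PBS.CS libraries and held the highest PBS.AIR level of many genes that rose with smoke, and PBS.CS replicate 9 held the highest level of the club cell gene Scgb1a1 of all 20. The label code of the latter breaks an otherwise regular order, in which airway comes before parenchyma of the same exposure. In that library Krt5 (0.392 CPM) and Myh11 (15.26 CPM) were at the level of parenchyma, against at least 4.33 and 81.3 CPM in the PBS.CS airway libraries. Scgb1a1 there (59870 CPM) was above every airway library of the same exposures (at most 57570 CPM). Its Ager (2021 CPM) was the lowest of the 20 parenchyma libraries, though above the airway libraries (at most 1886 CPM). PBS.AIR replicates 7 to 10 differed from the other 6 in clock and glucocorticoid-responsive genes, described below. Results that changed without these 4 libraries, an alternative chosen after seeing the data, are given beside the values. Skeletal muscle genes were high in PBS.CS replicates 4 and 9 alone (Ckm 13.6 and 17.5 CPM, against at most 0.664 CPM in the other 18 libraries).

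Smoke shifted a large part of the measured genes. Of 18250 genes tested with limma-voom, 3237 (17.7%) were higher and 3319 (18.2%) lower in PBS.CS at an adjusted p below 0.05. A log2FC (log2 of PBS.CS over PBS.AIR) of at least 1 was added for calls, which left 769 genes called higher (4.21% of those tested) and 1.12% of genes called lower. More rises than falls thus reached that size, although nearly as many genes moved down as up. In 972 genes (5.33%) every PBS.CS library lay above every PBS.AIR library, and in 584 (3.2%) every PBS.CS library lay below. The median log2FC of all genes tested was 0.00. Without PBS.CS replicate 9 the calls were 726 higher and 208 lower, and without PBS.AIR replicate 7 they were 801 and 205. Without PBS.AIR replicates 7 to 10, 4.34% of genes were called higher and 1.04% lower. A list's count below is read against these shares of all genes tested.

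**Figure D1:**
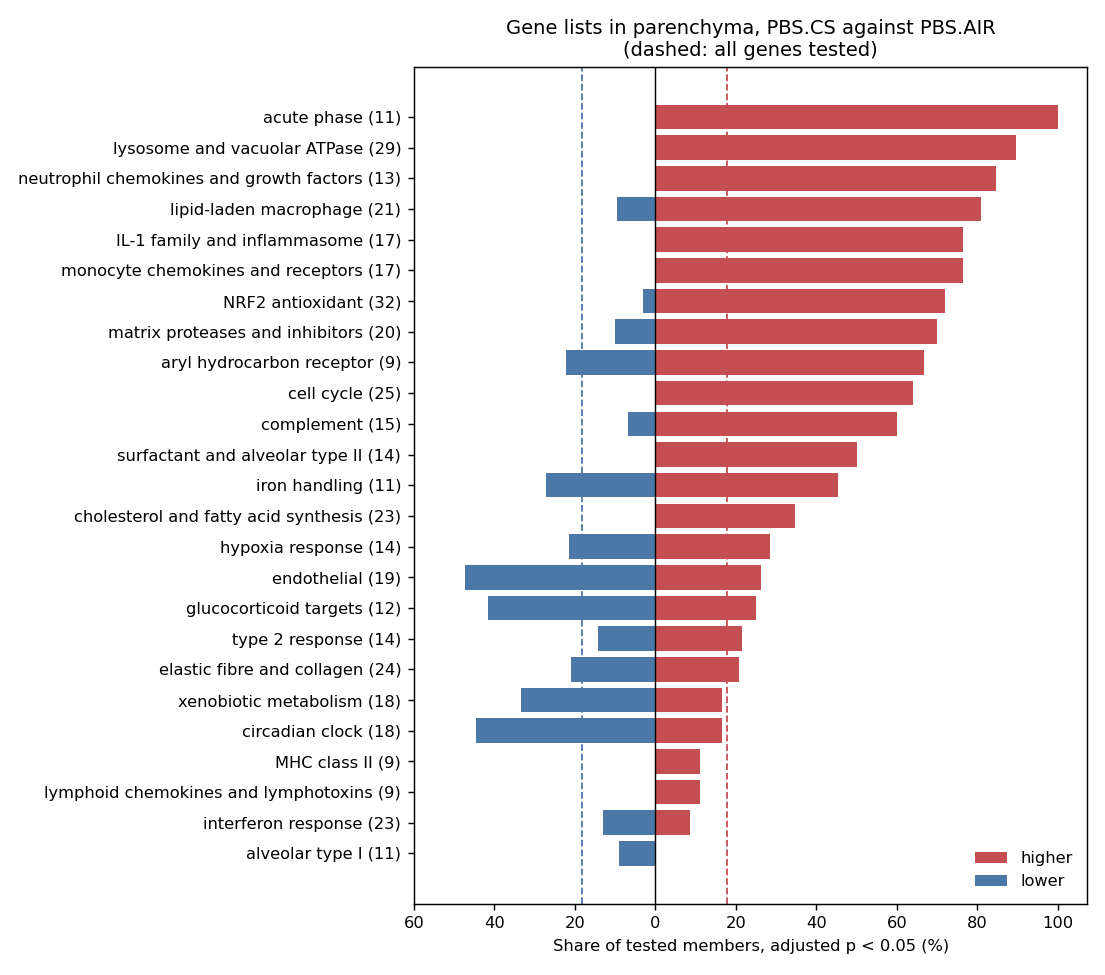
Share of the tested members of each gene list (number tested in parentheses) that were higher (bars to the right) or lower (bars to the left) in PBS.CS at an adjusted p below 0.05, in percent. Dashed lines mark the shares over all genes tested, 17.7% higher and 18.2% lower. All 11 acute phase genes were higher, and 9 of 19 endothelial genes were lower.

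Genes of the aryl hydrocarbon receptor pathway held some of the widest spreads between libraries. Of 9 tested members, 6 rose and 2 fell, 4 were called higher, and 3 did so without overlap of the groups; the median log2FC was 0.54. The 3 genes without overlap were Cyp1a1, Cyp1b1 and Ahrr. The first pair are cytochrome P450 enzymes that oxidise aromatic hydrocarbons, and Ahrr encodes the repressor of the receptor. Their 150 bases before the annotated start (RefSeq, GRCm38.p6, read 5′ to 3′ along the gene) are shown because each holds the receptor's core element GCGTG, in capitals on either strand. The Cyp1a1 stretch is chr9:57697463-57697612 on the plus strand, that of Cyp1b1 chr17:79715062-79715211 on the minus strand and that of Ahrr chr13:74292332-74292481 on the minus strand.
Cyp1a1: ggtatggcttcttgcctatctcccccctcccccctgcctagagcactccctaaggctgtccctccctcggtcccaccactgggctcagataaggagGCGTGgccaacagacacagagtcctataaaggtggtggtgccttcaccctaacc
Cyp1b1: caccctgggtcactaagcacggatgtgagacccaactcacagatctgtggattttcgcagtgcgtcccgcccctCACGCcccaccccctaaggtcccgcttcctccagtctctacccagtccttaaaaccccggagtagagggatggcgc
Ahrr: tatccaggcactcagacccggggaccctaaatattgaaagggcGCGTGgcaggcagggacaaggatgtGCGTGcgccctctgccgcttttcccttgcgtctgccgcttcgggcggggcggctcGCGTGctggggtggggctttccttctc
The element begins 54 bases before the Cyp1a1 start, 76 before that of Cyp1b1 (as its reverse complement), and at 3 places before that of Ahrr, the nearest 27 bases and the next 82 bases from it. Over 300-base promoters, from 250 bases before to 50 after each start, it was found in 5 of the 7 list members with a promoter in the table and in 32.4% of all 32851 promoters. A match is a description of the letters and not evidence of binding.

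Cyp1a1 was present in every library. In PBS.AIR it lay at 6.49 to 14.3 CPM (median 10.8), and in PBS.CS at 19.9, 21.2, 31.1, 63.9, 67.3, 76.4, 77.1, 256, 272 and 283 CPM (log2FC 2.91 ± 0.63 (SE), adjusted p = 9.48e-05). The lowest PBS.CS library was above the highest PBS.AIR library, yet the PBS.CS libraries spanned more than a 10-fold range and fell into separate levels, with 3 libraries near 20 to 31 CPM, 4 at 64 to 77 and 3 at 256 to 283. In the same order of libraries, Nqo1, an NRF2 and receptor target that reduces quinones, lay at 10.7, 8.61, 7.77, 19.02, 16.1, 16.1, 18.2, 53.4, 41.9 and 42.03 CPM, and Aldh3a1, an aldehyde dehydrogenase induced through the receptor, at 25.97, 11.8, 13.7, 28.1, 21.3, 18.5, 23.2, 53.1, 48.3 and 53.5 CPM. The 3 libraries with the most Cyp1a1 also held the most Nqo1 and Aldh3a1. Cyp1b1 was less spread, at 4.90 to 9.29 CPM (median 6.54) in PBS.AIR and 24.95 to 45.4 CPM (median 42.3) in PBS.CS (log2FC 2.42 ± 0.21 (SE), adjusted p = 3.00e-19). Ahrr rose from a median of 0.377 to 2.35 CPM (2.42 ± 0.26 on the log2 scale). The receptor and its partner moved the other way, with Ahr at -0.31 ± 0.094 (adjusted p = 0.00547) and Arnt at -0.27 ± 0.055 (adjusted p = 2.40e-05). Tiparp, a poly-ADP-ribosyltransferase that the receptor induces, rose by little (0.21 ± 0.062), as did Cyp2s1 (0.54 ± 0.12).

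**Figure D2:**
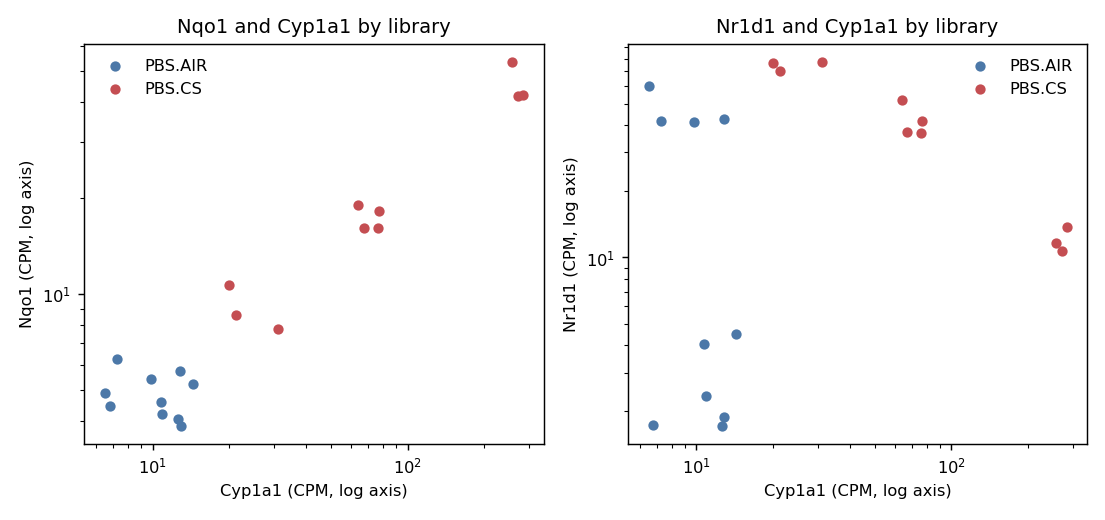
Levels of Nqo1 (left) and Nr1d1 (right) against Cyp1a1 in each of the 20 parenchyma libraries (CPM, both axes logarithmic, 1 point a library). The PBS.CS libraries form 3 sets by Cyp1a1, at 20 to 31, 64 to 77 and 256 to 283 CPM, and the sets hold the same libraries on the Nr1d1 axis.

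Most antioxidant genes of the NRF2 list rose, by small amounts. Of 32 tested, 23 rose and 1 fell, 12 rose without overlap and 4 were called higher, with a median log2FC of 0.46. Slc7a11, the cystine transporter that feeds glutathione synthesis, changed most, with 2.69 to 7.78 CPM (median 4.55) in PBS.AIR and 17.2 to 41.5 CPM (median 32.7) in PBS.CS (log2FC 2.70 ± 0.30 (SE), adjusted p = 4.57e-14). Nqo1 rose by 1.97 ± 0.41 (adjusted p = 3.48e-05). Glutathione and thioredoxin enzymes rose by less than 1 on the log2 scale: Gclc, the catalytic subunit of glutamate-cysteine ligase, by 0.71 ± 0.11, Txnrd1, thioredoxin reductase, by 0.63 ± 0.070, and Srxn1, sulfiredoxin, by 0.72 ± 0.096. None of these last had a PBS.CS library at or below a PBS.AIR library. Ftl1, the ferritin light chain, went from a median of 1936 to 3859.8 CPM. Hmox1, heme oxygenase, rose by 0.85 ± 0.21, and Pgd, an NADPH-producing enzyme of the pentose phosphate pathway, by 0.72 ± 0.093. Sod3, the extracellular superoxide dismutase, was the member that fell, from a median of 188.8 to 139.4 CPM (log2FC -0.49 ± 0.12 (SE), adjusted p = 5.79e-04). Txnrd1 is shown because its upstream stretch (chr10:82859056-82859205, plus strand, RefSeq, GRCm38.p6) at 1 of its 3 listed starts holds the antioxidant element searched as TGACNNNGC, here as the reverse complement in capitals, beginning 92 bases before the start.
Txnrd1: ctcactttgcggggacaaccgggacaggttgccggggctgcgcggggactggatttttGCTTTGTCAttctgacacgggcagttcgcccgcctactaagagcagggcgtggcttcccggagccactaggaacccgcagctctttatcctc
The element was found in 11 of the 33 promoters of the 27 list members in the table and in 12.4% of all promoters. Of these 27 members, 11 held it, but of the 19 that rose only 6 did. The promoters of Slc7a11 and Nqo1 did not hold it.

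The oxidases of basal xenobiotic metabolism went down in part. Of 18 members, 3 rose and 6 fell, 1 of them called lower and 4 without overlap, with a median log2FC of -0.17. Fmo2, the main flavin monooxygenase of lung, fell, with 1026 to 1764 CPM (median 1449) in PBS.AIR and 477 to 926 CPM (median 703) in PBS.CS (log2FC -1.01 ± 0.26 (SE), adjusted p = 8.97e-04). Fmo1 (-0.61 ± 0.20), the cytochrome P450 gene Cyp4b1 (-0.50 ± 0.15) and the carboxylesterase gene Ces1d (-0.49 ± 0.13) also fell without overlap of the groups. Mgst1, a membrane-bound glutathione transferase, rose by 0.76 ± 0.11, and its highest PBS.CS level (799.5 CPM) was in replicate 9.

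The programme of lipid-laden macrophages rose nearly as a whole. Of 21 members, 17 rose and 2 fell, 12 were called higher and 14 did not overlap, with a median log2FC of 1.08. Gpnmb, a transmembrane glycoprotein of lysosome-rich macrophages, lay at 27.7 to 88.9 CPM (median 36.5) in PBS.AIR and 236 to 464 CPM (median 367) in PBS.CS (log2FC 3.24 ± 0.23 (SE), adjusted p = 3.08e-25). The highest PBS.AIR value was that of replicate 7, and the second highest was 40.6 CPM. Trem2, a lipid-sensing receptor, rose by 2.63 ± 0.24, and Msr1, a scavenger receptor, by 2.89 ± 0.21. Cd68, a macrophage lysosomal membrane protein, went from a median of 45.9 to 189.2 CPM, Lgals3, galectin-3, from 196.1 to 555 CPM and Spp1, osteopontin, from 96.7 to 717 CPM. Plin2, which coats lipid droplets, rose, with 151.9 to 209 CPM (median 164.03) in PBS.AIR and 291 to 533 CPM (median 332) in PBS.CS (log2FC 1.09 ± 0.12 (SE), adjusted p = 6.76e-14). The members that fell were Cd36, a fatty acid receptor abundant in endothelium too (-0.21 ± 0.076, adjusted p = 0.0231), and Abca1, a cholesterol exporter (-0.36 ± 0.14, adjusted p = 0.0293). Abca1 did not pass without PBS.AIR replicates 7 to 10 (adjusted p = 0.169). Its fall also did not pass without PBS.CS replicate 9 (adjusted p = 0.118) or without PBS.CS replicate 5, PBS.AIR replicate 2 or PBS.AIR replicate 8, nor that of Cd36 without PBS.AIR replicate 4 (adjusted p = 0.0571). In these tissue samples more cells of a type and more RNA per cell cannot be told apart.

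Lysosomal genes moved with them. Of 29 tested, 26 rose, none fell, 20 did so without overlap and 9 were called higher, with a median log2FC of 0.71. Ctsk, cathepsin K, a collagen-degrading protease, lay at 57.8 to 152.9 CPM (median 69.1) in PBS.AIR and 388 to 696 CPM (median 592) in PBS.CS (log2FC 2.96 ± 0.21 (SE), adjusted p = 2.21e-26). Ctsd, cathepsin D, a general lysosomal protease, rose, with 671 to 1180.5 CPM (median 778) in PBS.AIR and 2212 to 3406 CPM (median 2827) in PBS.CS (log2FC 1.83 ± 0.13 (SE), adjusted p = 1.57e-25). Ctsb (1.13 ± 0.087), Ctsz (1.33 ± 0.12), the tartrate-resistant phosphatase gene Acp5 (1.69 ± 0.16) and Psap, the saposin precursor (1.26 ± 0.11), rose without overlap. Atp6v0d2, a subunit of the proton pump typical of macrophages and osteoclasts, rose from a median of 79.2 to 308 CPM. The upstream stretch of Ctsd (chr7:142387828-142387977, minus strand, RefSeq, GRCm38.p6) is shown because it holds TCACGTGA, a palindromic form of the element that TFEB binds, beginning 99 bases before the start, in capitals.
Ctsd: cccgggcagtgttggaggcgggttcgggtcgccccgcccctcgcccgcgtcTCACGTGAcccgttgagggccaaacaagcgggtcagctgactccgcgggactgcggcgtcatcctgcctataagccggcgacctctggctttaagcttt
This form was found in 4 of the 29 promoters of the 22 list members in the table and in 0.974% of all promoters.

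**Figure D3:**
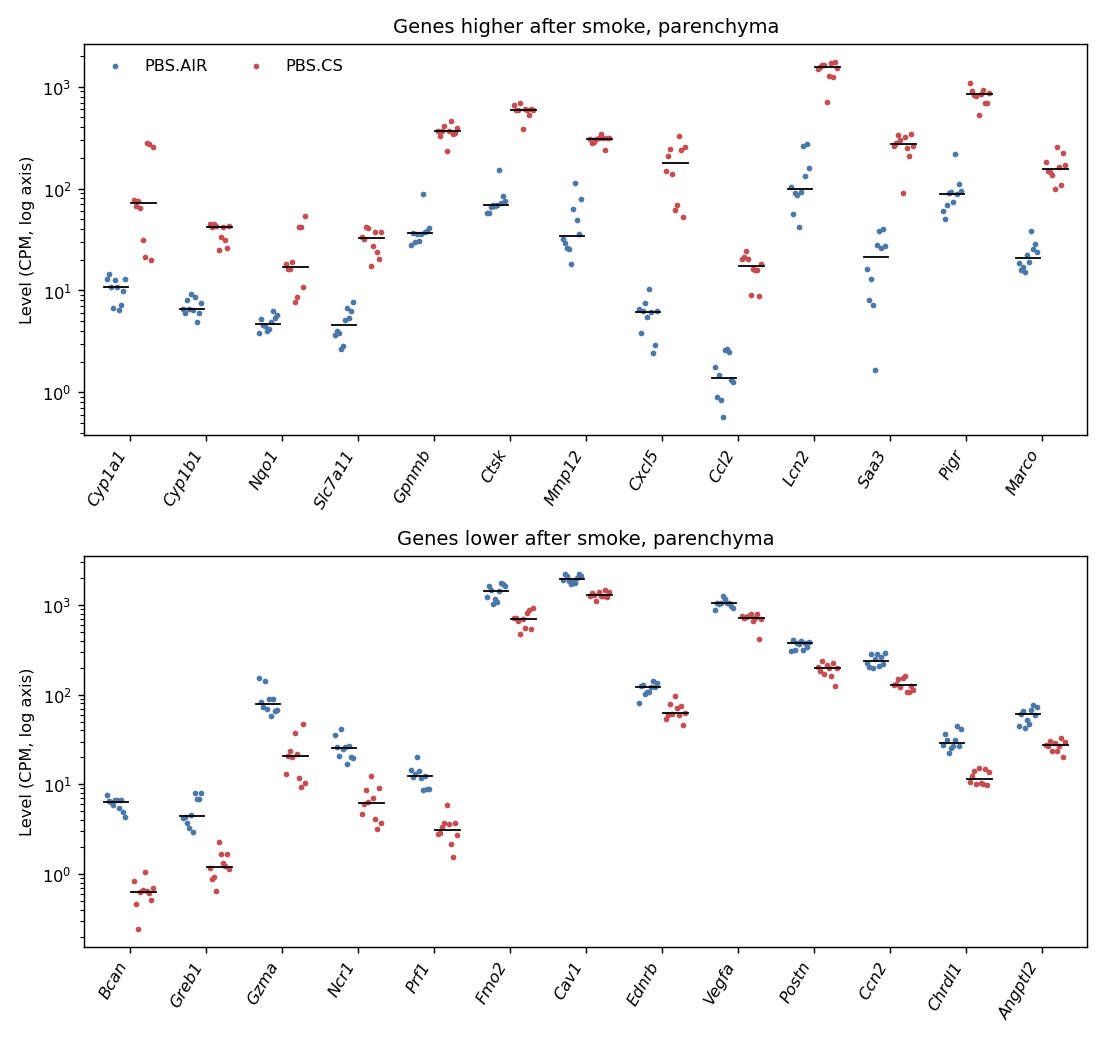
Levels in each library (CPM, log axis) of genes higher (top) and lower (bottom) after smoke, PBS.AIR in blue and PBS.CS in red, 10 libraries each, with the median as a line. Cyp1a1 is spread over 20 to 283 CPM in PBS.CS, and Gzma, Ncr1 and Prf1 lie lower in every PBS.CS library than in any PBS.AIR library.

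Most matrix proteases and inhibitors rose. Of 20 tested members, 14 rose and 2 fell, 9 were called higher and 8 did not overlap. Mmp12, the elastase of macrophages, lay at 18.1 to 113.2 CPM (median 34.1) in PBS.AIR and 238 to 345 CPM (median 309.8) in PBS.CS (log2FC 2.90 ± 0.26 (SE), adjusted p = 3.35e-19), so that no PBS.CS library was below 2 times the highest PBS.AIR library. Adam8, a sheddase of leukocytes, rose by 1.79 ± 0.23, Plau, urokinase, by 0.76 ± 0.10 and Serpina3n, a secreted serpin, by 1.94 ± 0.23. Among metalloprotease inhibitors, Timp1 rose with overlap of the groups, at 1.62 to 11.1 CPM (median 4.52) in PBS.AIR and 8.39 to 21.1 CPM (median 15.3) in PBS.CS (log2FC 1.68 ± 0.48 (SE), adjusted p = 0.00322), while Timp3, far more abundant in lung per length of transcript (124.97 against 5.09 CPM per kb, medians of PBS.AIR), fell by 0.56 on the log2 scale (adjusted p = 9.35e-05). Serpina1a, an alpha-1-antitrypsin gene with near-identical copies that can share reads, was at -0.35 ± 0.30 and did not pass (adjusted p = 0.399).

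Chemokines that draw neutrophils and monocytes were among the strongest risers. Of 13 tested neutrophil chemokines and growth factors, 11 rose, none fell, 10 were called higher and 8 did not overlap (median log2FC 1.76). Cxcl5, a ligand of CXCR2 made by alveolar epithelium, had the largest change of the list, with PBS.AIR at 2.45 to 10.3 CPM (median 6.21) and PBS.CS at 52.4, 61.5, 69.7, 138.5, 149.8, 209.6, 240.0, 242, 257 and 328 CPM (log2FC 4.80 ± 0.58 (SE), adjusted p = 5.68e-12). Cxcl1 lay at 2.98 to 7.11 CPM (median 3.92) in PBS.AIR and 45.7 to 102.1 CPM (median 75.8) in PBS.CS (log2FC 4.08 ± 0.40 (SE), adjusted p = 1.25e-16), and Cxcl2 rose by 3.50 ± 0.40. Among growth factors, Csf2, which alveolar macrophages need, went from a median of 3.52 to 15.9 CPM and Csf1 from 38.1 to 96.2 CPM, both without overlap. Tnf rose by 2.53 ± 0.32. Csf3, the granulocyte growth factor, stayed at or below 0.218 CPM in every library and did not pass (log2FC 1.30 ± 0.71 (SE), adjusted p = 0.143).

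In the monocyte list, 13 of 17 members rose, all 13 without overlap and 12 of them called higher, and none fell (median log2FC 2.03). Ccl2, which draws CCR2-bearing monocytes, had the largest change, with 0.573 to 2.67 CPM (median 1.39) in PBS.AIR and 8.75 to 24.4 CPM (median 17.4) in PBS.CS (log2FC 3.52 ± 0.39 (SE), adjusted p = 1.43e-13). Ccl3 rose by 3.30 ± 0.34, Ccl17, a ligand of CCR4, by 2.61 ± 0.29 and Ccl9, a myeloid chemokine, by 2.77 ± 0.20. Ccl6 was the most abundant chemokine per length among those named here, at 212 CPM per kb in PBS.AIR and 1004 in PBS.CS (medians), and rose by 2.34 ± 0.21. The receptor genes parted: Ccr1 rose by 1.60 ± 0.16, whereas Ccr2 was at 0.12 ± 0.19 and did not pass (adjusted p = 0.656), with PBS.AIR at 50.4 to 96.6 CPM and PBS.CS at 48.7 to 97.97 CPM.

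Interleukin-1 genes and their antagonists rose together. Of 17 members, 13 rose, none fell, 5 were called higher and 5 did not overlap. Il1b lay at 17.3 to 42.9 CPM (median 24.2) in PBS.AIR and 38.3 to 92.7 CPM (median 64.1) in PBS.CS (log2FC 1.34 ± 0.27 (SE), adjusted p = 2.63e-05), with overlap. Il1a rose by 0.67 ± 0.17 without overlap, Il18 by 0.92 ± 0.19, and Nlrp3, the inflammasome sensor, by 1.24 ± 0.21. The log2FC was above 2 for the receptor antagonist Il1rn, with 14.5 to 25.4 CPM (median 17.9) in PBS.AIR and 51.3 to 113.9 CPM (median 87.96) in PBS.CS (log2FC 2.18 ± 0.25 (SE), adjusted p = 2.71e-13), and the decoy receptor Il1r2 (2.58 ± 0.36).

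Acute phase genes rose without exception. All 11 were higher, 10 were called and 10 did not overlap, with a median log2FC of 2.53. Lcn2, lipocalin 2, which binds bacterial siderophores, lay at 41.8 to 273 CPM (median 98.8) in PBS.AIR and 706 to 1759 CPM (median 1555) in PBS.CS (log2FC 3.69 ± 0.24 (SE), adjusted p = 4.06e-29). Saa3, a serum amyloid A of macrophages and epithelium, rose, with 1.65 to 39.7 CPM (median 21.2) in PBS.AIR and 91.2 to 341 CPM (median 273) in PBS.CS (log2FC 4.08 ± 0.36 (SE), adjusted p = 3.82e-19). Saa1, of the same family, had a median of 1.30 CPM in PBS.CS (2.80 ± 0.59). Orm1 and Orm2, alpha-1-acid glycoproteins whose near-identical sequences can share reads, rose by 4.26 ± 0.53 and 4.26 ± 0.60. Without PBS.AIR replicates 7 to 10 the log2FC of Saa3 was 4.86 and that of Orm1 4.99. Complement factor B (Cfb) rose by 2.53 ± 0.20, ceruloplasmin (Cp) by 1.62 ± 0.13, Lbp, which presents endotoxin to CD14, by 1.01 ± 0.13, and haptoglobin (Hp) by 0.95 ± 0.12.

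Of 15 complement genes, 9 rose and 1 fell, 4 were called higher and 7 rose without overlap. C3, the central component, which was counted with the acute phase genes, lay at 260.2 to 385 CPM (median 288) in PBS.AIR and 716 to 1168 CPM (median 1002) in PBS.CS (log2FC 1.68 ± 0.11 (SE), adjusted p = 4.39e-30). C1qa, a subunit of the starter complex that macrophages make, rose by 1.49 ± 0.14 and the anaphylatoxin receptor gene C3ar1 by 2.15 ± 0.19. Cd55, a membrane regulator, rose by 0.63 ± 0.078. The smallest adjusted p of all genes tested was that of Pigr, which carries immunoglobulin A and M across epithelium, at 49.9 to 218 CPM (median 88.9) in PBS.AIR and 524 to 1097 CPM (median 848) in PBS.CS (log2FC 3.21 ± 0.14 (SE), adjusted p = 1.42e-47). Steap4, a metalloreductase, followed, at 29.7 to 54.8 CPM (median 32.4) in PBS.AIR and 148.9 to 375 CPM (median 297) in PBS.CS (log2FC 2.94 ± 0.15 (SE), adjusted p = 3.83e-40), and Hpgds, a prostaglandin D synthase, rose by 2.56 ± 0.17. Cd14, the endotoxin co-receptor, rose by 2.18 ± 0.15.

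In several immune lists most members did not pass, as among all genes tested (35.9% passed in either direction). Of 23 interferon response genes, 2 rose and 3 fell, none was called, and the median log2FC was -0.19. Ifit1 was at -0.19 ± 0.17 (adjusted p = 0.416), Oas1a rose by 0.75 ± 0.19 and Gbp3, a guanylate-binding protein, fell by 0.78. Among 14 type 2 genes 3 rose and 2 fell. Among the risers, Retnla lay at 14.1 to 218 CPM (median 59.7) in PBS.AIR and 457 to 899 CPM (median 547) in PBS.CS (log2FC 3.31 ± 0.30 (SE), adjusted p = 1.12e-18) and Chil3 rose from a median of 455 to 1602 CPM, both secreted by alternatively activated macrophages. The epithelial cytokine gene Tslp fell (-0.75 ± 0.14, adjusted p = 6.98e-06), and Il4 was at or below 0.557 CPM in all 20 libraries, with a fall (-0.97 ± 0.37, adjusted p = 0.032) that did not pass when any of 5 single libraries was left out, nor without PBS.AIR replicates 7 to 10 (adjusted p = 0.0992). Ccl11, an eosinophil chemokine, did not pass (log2FC 0.70 ± 0.65 (SE), adjusted p = 0.427), although it did in a fit of the 20 libraries alone (adjusted p = 0.00449). Of 9 lymphoid chemokine and lymphotoxin genes, Lta rose (1.03 ± 0.33, adjusted p = 0.0102), which did not pass without PBS.AIR replicates 7 to 10 (adjusted p = 0.135). Cxcl13 (0.63 ± 0.58) and Ccl19 (1.81 ± 1.18) did not pass in the fit that includes airway libraries (adjusted p = 0.426 and 0.236), but passed in the fit of the 20 libraries (adjusted p = 0.00216 and 1.92e-05). Of 9 class II genes Cd74, the invariant chain, rose, by 0.46 ± 0.14.

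Proliferation genes rose moderately. Of 25 cell cycle genes, 16 rose, none fell, 3 were called higher and 2 did not overlap (median log2FC 0.78). Mki67 lay at 10.8 to 34.4 CPM (median 22.4) in PBS.AIR and 24.01 to 57.9 CPM (median 44.4) in PBS.CS (log2FC 0.85 ± 0.22 (SE), adjusted p = 9.99e-04), and the mitotic genes Ccnb1 and Plk1 rose by 1.41 ± 0.28 and 1.05 ± 0.24. Of 14 surfactant and alveolar type II genes, 7 rose and none fell. The abundant lipid-film proteins did not pass, with Sftpc at -0.18 ± 0.19 (adjusted p = 0.484) and Sftpb at 0.05 ± 0.15 (adjusted p = 0.845). The collectin gene Sftpd rose, with 685 to 1298 CPM (median 875) in PBS.AIR and 1479 to 2899 CPM (median 2359) in PBS.CS (log2FC 1.30 ± 0.15 (SE), adjusted p = 1.52e-13), Abca3, the lamellar body lipid pump, by 0.65 ± 0.10 and Chil1, a secreted chitinase-like protein, by 1.96 ± 0.17. Of 23 genes of cholesterol and fatty acid synthesis, 8 rose and none fell, led by the desaturase gene Scd1 (1.29 ± 0.26), with Fasn, fatty acid synthase, at 0.56 ± 0.20 (adjusted p = 0.0177, and 0.0541 with no filter on low counts). Scd1 lay at 415.1 to 495.1 CPM in PBS.AIR replicates 7 to 10, at 1356 to 1921 CPM in the other 6 PBS.AIR libraries and at 1378 to 3844 CPM in PBS.CS. Without those 4 libraries the rise was 0.50 for Scd1 (adjusted p = 0.17) and 0.32 for Fasn (adjusted p = 0.31), neither passed, and 2 members of the list rose. With sample quality weights 15 rose. Of 11 alveolar type I genes Cav1, caveolin 1, fell, with 1705 to 2230.2 CPM (median 1959) in PBS.AIR and 1119.6 to 1484 CPM (median 1288) in PBS.CS (log2FC -0.59 ± 0.14 (SE), adjusted p = 3.34e-04), and endothelium expresses it too. Ager was at -0.18 ± 0.18 (adjusted p = 0.484) and passed in the fit of the 20 libraries (adjusted p = 0.0279). The summed level of the type I list, Cav1 included, was 10094 to 11657 CPM in PBS.AIR and 7692 to 9892 CPM in PBS.CS.

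Endothelial genes leaned down. Of 19 tested, 9 fell and 5 rose, 3 were called higher and none lower, with a median log2FC of -0.36. Ednrb, an endothelin receptor, fell, with 81.5 to 140.4 CPM (median 122.5) in PBS.AIR and 45.3 to 96.5 CPM (median 61.7) in PBS.CS (log2FC -0.84 ± 0.16 (SE), adjusted p = 1.02e-05). Nos3, endothelial nitric oxide synthase, fell by 0.63 (adjusted p = 2.04e-05) and Pecam1 by 0.36 (adjusted p = 0.0101). Kdr, the main VEGF receptor, fell by 0.41 (adjusted p = 0.0245) but did not pass without PBS.CS replicate 9 (adjusted p = 0.0679). The risers included genes of venular activation, P-selectin (Selp, 1.35 ± 0.29) and the chemokine-binding receptor Ackr1 (2.57 ± 0.44), both at low levels (medians of 7.90 and 2.84 CPM in PBS.CS). In place of 5, 2 endothelial genes rose without PBS.AIR replicates 7 to 10. Vegfa, the growth factor that endothelium needs, fell, with 874 to 1251 CPM (median 1048) in PBS.AIR and 422 to 802 CPM (median 724) in PBS.CS (log2FC -0.58 ± 0.16 (SE), adjusted p = 0.00267), and its lowest PBS.CS library, replicate 9, was well below the next (662 CPM). It belongs to a list of 14 hypoxia response genes in which 4 rose and 3 fell, with Egln3, an oxygen sensor, rising most (1.61 ± 0.29). Without PBS.AIR replicates 7 to 10, 2 of the list rose.

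Matrix genes passed in each direction about as often as all genes tested (17.7% higher and 18.2% lower). Of 24 elastic fibre and collagen genes, 5 rose and 5 fell, none was called, and the median log2FC was 0.02. Without overlap, 4 of the 24 fell, against 3.2% of all genes tested, and none rose. Eln, elastin, rose by 0.70 ± 0.24 (adjusted p = 0.0158) with overlap, which did not pass without PBS.AIR replicates 7 to 10 (adjusted p = 0.273), when 3 members of the list rose. Lox, which crosslinks elastin and collagen, rose by 0.65 ± 0.17. The fibrillar collagen genes Col1a1 and Col3a1 did not pass, with Col1a1 at 0.22 ± 0.17 (adjusted p = 0.341) and Col3a1 at 0.04 ± 0.18 (adjusted p = 0.895). Postn, periostin, fell, with 304 to 411 CPM (median 374) in PBS.AIR and 124.1 to 239.8 CPM (median 197.1) in PBS.CS (log2FC -0.92 ± 0.12 (SE), adjusted p = 7.70e-11), Ccn2, a TGF-beta target, by 0.90 and Fbln5, needed for elastic fibre assembly, by 0.36. Iron handling genes also split, as 5 of 11 rose and 3 fell. Slc11a1, the iron exporter of phagosomes, rose by 1.80 ± 0.22, transferrin (Trf) by 0.66 ± 0.097, the divalent metal transporter Slc11a2 by 0.54 ± 0.079 and ferroportin (Slc40a1) by 0.40 ± 0.12, whereas Heph, a ferroxidase, fell by 0.58.

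Clock genes differed between the groups, and some also spread widely within them. Of 18 members, 3 rose and 8 fell, 2 were called higher, 4 lower, 2 rose and 5 fell without overlap. Per2, a clock repressor, lay at 51.4 to 145.2 CPM (median 70.4) in PBS.AIR and 14.2 to 37.3 CPM (median 30.5) in PBS.CS (log2FC -1.72 ± 0.34 (SE), adjusted p = 1.53e-05), and Hlf, an output factor of the clock, fell by 1.76. Cry2 fell by 0.54 and Bhlhe41 rose by 1.28 ± 0.18. Nr1d1, which encodes REV-ERB alpha, lay in PBS.AIR at 1.72, 1.73, 1.88, 2.34, 4.03, 4.50, 41.2, 41.9, 42.5 and 60.3 CPM, so that 4 libraries, replicates 7 to 10, lay far above the other 6. In PBS.CS, in the order of rising Cyp1a1 used above, it lay at 76.3, 70.4, 77.1, 51.96, 37.1, 36.6, 41.7, 11.7, 10.8 and 13.7 CPM. The 3 sets of PBS.CS libraries that Cyp1a1 formed were thus the same for Nr1d1, with the highest Nr1d1 where Cyp1a1 was lowest. By rising Cyp1a1 they were replicates 5, 6 and 9, replicates 1 to 4, and replicates 7, 8 and 10. Replicates are numbered in the order of the library codes, so the sets of both groups partly follow that order. The hour of collection is not given in the sources used here. Its part in Cyp1a1, Nr1d1 and the other clock and glucocorticoid genes was not tested. The rise of Nr1d1 (2.07 ± 0.78, adjusted p = 0.029) did not pass with edgeR (adjusted p = 0.202) or DESeq2 (adjusted p = 0.176), nor without any of PBS.AIR replicates 1, 4, 5 and 6 or PBS.CS replicate 9, and Arntl did not pass (log2FC 1.04 ± 0.47 (SE), adjusted p = 0.0724). Without PBS.AIR replicates 7 to 10, 5 clock genes fell in place of 8. The log2FC was then 3.79 for Nr1d1 (adjusted p = 0.0214), -1.08 for Hlf (adjusted p = 0.0222) and -0.21 for Arntl (adjusted p = 0.779). Those 4 libraries held the highest Nr1d1 of PBS.AIR and all PBS.CS libraries were kept, so the larger Nr1d1 rise follows from the choice. Among 12 glucocorticoid targets 3 rose and 5 fell. Tsc22d3, a glucocorticoid-induced leucine zipper protein, fell, with 127.01 to 555 CPM (median 284) in PBS.AIR and 108.5 to 166.4 CPM (median 141.7) in PBS.CS (log2FC -1.005 ± 0.25 (SE), adjusted p = 5.14e-04), Klf9 fell by 0.74 and Nr3c1, the receptor itself, by 0.42, whereas Fkbp5 rose by 0.66 ± 0.22 with limma-voom but did not pass with edgeR or DESeq2 (adjusted p = 0.105 and 0.109). Without PBS.AIR replicates 7 to 10, 3 of these targets fell, Tsc22d3 did not pass (-0.49, adjusted p = 0.169) and Fkbp5 rose by 1.35 (adjusted p = 1.09e-05).

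Markers of cell types moved in both directions. Cytotoxic lymphocyte markers fell throughout, 7 of 7, with 6 called lower and 6 without overlap (median log2FC -1.54), and their summed level was 113.4 to 263 CPM in PBS.AIR and 25.4 to 82.8 CPM in PBS.CS. Gzma, granzyme A, lay in PBS.AIR at 57.2, 65.3, 67.3, 68.9, 73.4, 83.7, 89.5, 89.6, 142.5 and 152.7 CPM and in PBS.CS at 9.37, 10.3, 11.7, 12.9, 20.03, 20.9, 22.04, 23.3, 37.2 and 47.4 CPM (log2FC -2.17 ± 0.30 (SE), adjusted p = 1.19e-09). The groups did not overlap, and the same held for perforin (Prf1, -1.95 ± 0.26), granzyme B (Gzmb, -1.38 ± 0.22) and the natural killer receptor genes Ncr1 (-2.06 ± 0.28) and Klre1 (-2.23 ± 0.27). Of 12 T cell markers 3 rose and 1 fell, and of 13 B cell and plasma cell markers 1 rose and 0 fell. The defining T cell gene Cd3e did not pass, at 0.05 ± 0.30 (adjusted p = 0.925). Jchain, of plasma cells, was at 0.57 ± 0.27 (adjusted p = 0.0867), and passed without PBS.AIR replicate 7 (adjusted p = 0.0117), the library with the highest PBS.AIR level (257 CPM), without PBS.CS replicate 2 (adjusted p = 0.0396) and without PBS.AIR replicates 7 to 10 (adjusted p = 0.00367).

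Of 7 mast cell and basophil markers, 4 fell, all called lower, and none rose. The median log2FC of the list was -1.37, and 2 members lay lower without overlap of the groups (3.2% of all genes tested did). The proteases Cpa3 and Mcpt4 had at most 1.40 and 2.58 CPM, and Cpa3 did not pass (log2FC -0.86 ± 0.65 (SE), adjusted p = 0.32) while Mcpt4 did (log2FC -1.37 ± 0.57 (SE), adjusted p = 0.0484), a call lost when any of 13 single libraries was left out, and without PBS.AIR replicates 7 to 10 (adjusted p = 0.136). Neutrophil markers rose in 9 of 11, none fell, and S100a8 overlapped between groups, at 28.4 to 140.7 CPM (median 45.9) in PBS.AIR and 65.5 to 162.7 CPM (median 114.6) in PBS.CS (log2FC 1.04 ± 0.27 (SE), adjusted p = 0.00133), as did S100a9 (1.08 ± 0.29). Of 11 alveolar macrophage markers 6 rose and 1 fell. Marco, a scavenger receptor, rose, with 15.04 to 38.6 CPM (median 20.8) in PBS.AIR and 100.2 to 254 CPM (median 155.9) in PBS.CS (log2FC 2.87 ± 0.31 (SE), adjusted p = 1.18e-14) and Siglecf by 0.75 ± 0.19, while the summed level of the list was 652 to 973 CPM in PBS.AIR and 1254 to 1744 CPM in PBS.CS. These macrophage and neutrophil markers rose together with the lysosomal, lipid, chemokine and protease genes above, and their part in those results was not tested.

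**Figure D4:**
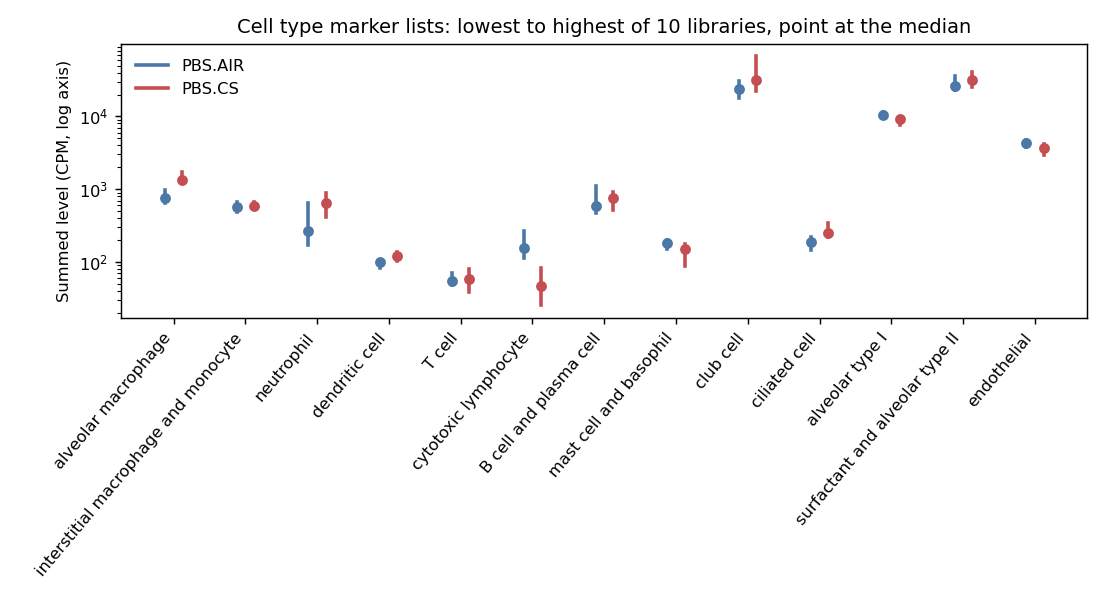
Summed level of each marker list (CPM, log axis) in PBS.AIR (blue) and PBS.CS (red), with the bar from the lowest to the highest of 10 libraries and the point at the median. The cytotoxic lymphocyte, alveolar macrophage and alveolar type I sums do not overlap between groups, and the club cell sum reaches 66716 CPM in 1 PBS.CS library.

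Club, ciliated and mucus cell markers of the airway also rose in part in the smoke group. Of 6 club cell markers 5 rose, of 8 ciliated cell markers 5 and of 7 mucus cell markers 3, and none of these fell. The club cell markers that rose include Hp, which was also counted with the acute phase genes. Scgb1a1, the club cell secretory protein, had PBS.CS levels up to 59866 CPM in replicate 9 against 32920 CPM in the next, and its rise (log2FC 0.44 ± 0.16 (SE), adjusted p = 0.022) did not pass without that library (adjusted p = 0.121) or without PBS.AIR replicate 5 (adjusted p = 0.0526). Scgb3a2 lay at 287 to 512 CPM (median 398) in PBS.AIR and 537 to 1755 CPM (median 684) in PBS.CS (log2FC 0.92 ± 0.21 (SE), adjusted p = 1.83e-04), and without the same library its rise was 0.77 (adjusted p = 0.00222). Foxj1, the master factor of ciliated cells, rose by 0.73 ± 0.15 and the mucin gene Muc5b by 1.03 ± 0.30. Muc5ac stayed at or below 3.65 CPM and did not pass (log2FC 1.14 ± 0.62 (SE), adjusted p = 0.145), but passed with edgeR (adjusted p = 0.0151). Other airway lists did not rise in this way. Of 6 basal and squamous epithelium markers 1 rose and 0 fell, with a median log2FC of -0.20. Of 6 airway smooth muscle markers 0 rose and 1 fell. Their summed level was 186.7 to 265.4 CPM in PBS.AIR and 134.3 to 171.9 CPM in PBS.CS. How much airway tissue each parenchyma sample held was not tested. None of the 9 cardiac muscle markers passed, nor any of the 4 mesothelial or the 6 erythroid markers.

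Several of the largest rises were of genes near absence in air-breathing lungs. Awat1, an acyltransferase of wax ester synthesis, had at most 1.11 CPM in PBS.AIR, in replicate 7, and 4.24 to 12.4 CPM in PBS.CS (log2FC 6.96 ± 1.15 (SE), adjusted p = 2.65e-07). Cd200r2, a receptor of myeloid cells, rose by 5.54 ± 0.59, and Vnn1, pantetheinase, rose with 3.08 to 17.2 CPM (median 4.21) in PBS.AIR and 66.9 to 162.9 CPM (median 133.6) in PBS.CS (log2FC 4.73 ± 0.31 (SE), adjusted p = 1.85e-28). Spink5, a protease inhibitor of squamous epithelium, Rph3a, Lemd1 and Mab21l3 followed with 5.27, 4.78, 4.52 and 4.38. Among the largest falls was Bcan, a proteoglycan known from brain matrix, at 4.33 to 7.62 CPM (median 6.40) in PBS.AIR and 0.243 to 1.04 CPM (median 0.631) in PBS.CS (log2FC -3.28 ± 0.24 (SE), adjusted p = 1.24e-24). The others included Cst8, a cystatin (-3.17 ± 0.37), the vasopressin receptor gene Avpr1a (-2.78 ± 0.47), the ciliary neurotrophic factor receptor gene Cntfr (-2.10 ± 0.35) and Greb1 (-2.03 ± 0.22). The log2FC without PBS.AIR replicates 7 to 10 was, for Avpr1a, -3.71 and for Awat1 7.55. Cidec, a lipid droplet protein, fell, with 11.2 to 18.6 CPM (median 14.1) in PBS.AIR and 2.02 to 5.77 CPM (median 2.87) in PBS.CS (log2FC -2.20 ± 0.64 (SE), adjusted p = 0.00344), while the other 6 adipose markers did not pass. After Bcan, the smallest adjusted p among falls were those of Edc3, of mRNA decapping, at 41.7 to 56.3 CPM (median 51.5) in PBS.AIR and 29.96 to 35.97 CPM (median 32.8) in PBS.CS (log2FC -0.62 ± 0.058 (SE), adjusted p = 1.06e-17), Palmd (-0.83 ± 0.081), Angptl2 (-1.10 ± 0.11) and Chrdl1, a BMP antagonist (-1.35 ± 0.13).

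Each of the following comparisons uses the same PBS.CS and PBS.AIR parenchyma libraries, so their results are not independent of each other. The smoke effect in parenchyma was first compared with that in airway, by the difference of the log2FC of each gene. It differed in 680 of 18250 genes (3.73%), with a larger log2FC in parenchyma in 555 (3.04%) and a smaller in 0.685%. The count fell to 420 without PBS.CS replicate 9 and to 435 without PBS.AIR replicate 2. The smaller side was then 0.427% and 0.405% of genes, and 0.433% without PBS.AIR replicate 10. Pigr had the smallest p, with 3.21 in parenchyma and 1.18 in airway (difference 2.04 ± 0.20, adjusted p = 2.11e-14). In PBS.AIR its median was 88.9 CPM in parenchyma and 367 CPM in airway, and in PBS.CS 848 and 971 CPM. The medians of the tissues lay further apart in air than after smoke. Steap4 (2.94 against 1.19) and Cd14 (2.18 against 0.61) were next. On the other side, Edc3 fell more in parenchyma (difference -0.36 ± 0.083, adjusted p = 0.00359), and Tnfrsf19 and Cd36 fell in parenchyma (-0.57 and -0.21) with airway values of 0.07 and 0.26. By list, the difference was positive in 6 of 11 acute phase, 6 of 15 complement, 7 of 29 lysosomal and 6 of 8 ciliated cell genes. Cyp1a1 (2.91 against 3.19), Ahrr (2.42 against 2.45) and Nqo1 (1.97 against 2.19) did not pass the test of a difference. The airway libraries were uneven in tissue markers. Their score of airway less parenchyma markers ran from -4.677 to -0.822, against -7.369 to -6.218 in the parenchyma libraries. Ager ran from 403.8 to 1886 CPM in airway and was at least 2021 CPM in parenchyma. How much parenchyma each airway library held, and its part in these differences between tissues, was not tested.

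Against smoke under dexamethasone the effect differed in 588 genes (3.22%), positive in 411 (2.25%) and negative in 0.97%. Without PBS.CS replicate 9 it differed in 382 genes, and without PBS.AIR replicates 7 to 10 in 316, of which 267 were positive. The negative side was 1.85% of genes without PBS.AIR replicate 1, 0.532% without PBS.CS replicate 9, 0.603% without PBS.AIR replicate 8, 0.625% without PBS.CS replicate 2 and 0.269% without PBS.AIR replicates 7 to 10. The positive differences were led by macrophage and lysosomal genes. Plet1, a surface protein of alveolar macrophages, had 1.56 without and 0.16 with dexamethasone (adjusted p = 7.48e-09), and Gpnmb 3.24 and 0.72 (adjusted p = 2.86e-08). The Gpnmb median was 36.5 CPM in PBS.AIR, 238 in PBS.AIR.DEX, 367 in PBS.CS and 378 in PBS.CS.DEX. With dexamethasone the median was thus higher in air and close to the same in smoke. For Ctsk the medians, in the same order of groups, were 69.1, 289, 592 and 527 CPM. Ccl6 went from 379.7 and 1126 CPM in air to 1803 and 1214 CPM in smoke, each without and with dexamethasone. Of 29 lysosomal genes 14 and of 21 lipid-laden macrophage genes 9 had a positive difference, and none a negative one. The smallest p on the negative side were those of Fam117a, Rev1 and Bace1, with -0.25, -0.69 and -0.42 without and 0.17, -0.02 and 0.05 with dexamethasone. Rev1 did not pass without PBS.AIR replicates 7 to 10 (adjusted p = 0.0861). Cxcl5, Saa3 and Gzma did not pass the test of a difference (adjusted p = 0.192, 0.65 and 0.662).

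The widest contrast was with smoke in allergen-exposed lungs, where the effect differed in 6569 genes (36%), positive in 3419 (18.7%) and negative in 3150 (17.3%). The larger side changed without PBS.CS replicate 9 (2924 positive and 3426 negative) and without PBS.AIR replicate 1 (3079 positive and 3652 negative). Pigr rose by 3.21 in PBS mice and was at -0.27 in HDM mice (adjusted p of the difference = 3.59e-31). Its level was already high with HDM and air, at a median of 1427 CPM, and 1234 CPM with HDM and smoke. C3 (1.68 against -0.44) and Cd14 (2.18 against -0.64) were next by p. On the negative side Chrdl1 fell in PBS mice (-1.35) and rose in HDM mice (0.86), from HDM.AIR levels of 3.17 to 11.7 CPM, and Irs1 and Tgfbr3 did the same (-0.87 and -0.62 against 0.59 and 0.76). Of 25 cell cycle genes 24, and of 13 neutrophil chemokine genes 11 had the larger log2FC in PBS mice, while of 19 endothelial genes 13 had the smaller and 4 the larger. Cyp1a1 (5.41), Ahrr (1.94), Nqo1 (2.29) and Gzma (-1.16) did not pass the test of a difference from PBS mice, with the HDM values given here (adjusted p = 0.0893, 0.272, 0.718 and 0.0627). The difference of Gzma passed when any of 3 single libraries was left out (adjusted p = 0.0283 without PBS.CS replicate 9) and without PBS.AIR replicates 7 to 10 (adjusted p = 0.039).

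**Figure D5:**
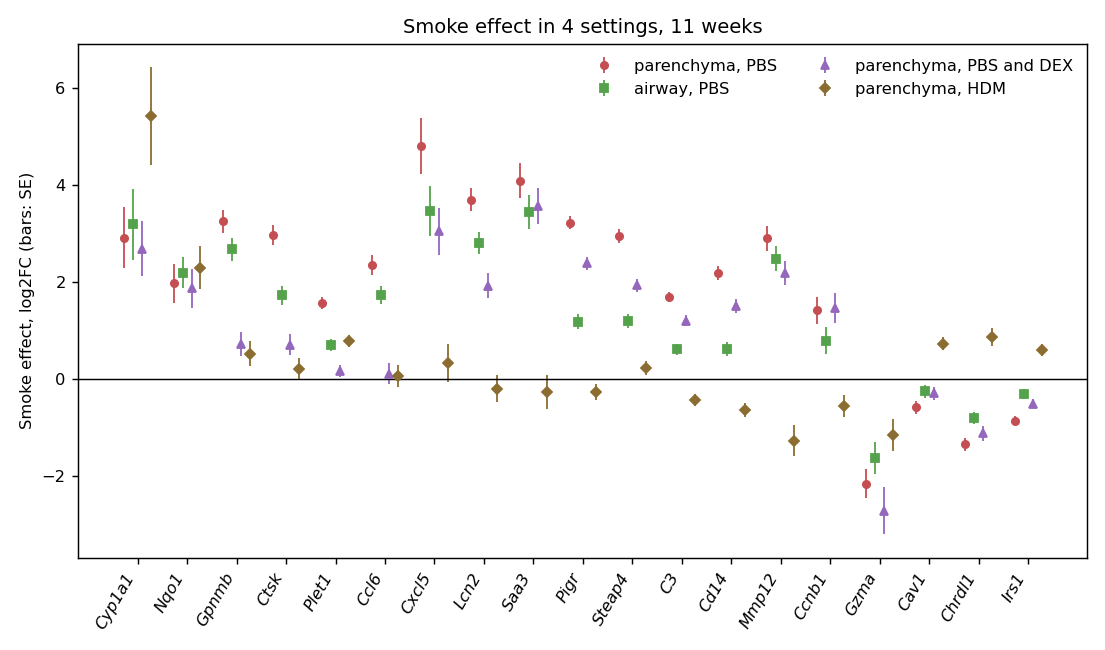
Smoke effect (log2FC of the smoke group over its air group, bars of 1 SE) in parenchyma of PBS mice, in airway of PBS mice, in parenchyma under dexamethasone and in parenchyma of HDM mice, 10 libraries a group. Pigr and Cd14 lie above 0 in the first 3 settings and below 0 in HDM mice.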

How the data were processed

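RNA of 203 libraries had been sequenced as single reads, and the authors deposited expected counts (estimated counts per gene, not scaled for depth), and 20.3% of those above 0 had a fractional part. The submitters' processing notes name mm10, bcl2fastq 2.20.0.422, STAR 2.5.1b, RSEM 1.2.31 and kallisto 0.44.0. Which quantifier made the table, and whether strand was used, is not given in the sources used here. Of 43346 identifiers 42462 matched GENCODE M21 by stable ID, and 53.3% carried the version of that release, so annotation may differ for the rest.

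Counts were rounded, and 18250 genes with at least 0.353 CPM (10 counts in the median library) in 9 of 160 libraries at 11 weeks were fitted with limma-voom (limma 3.58.1, edgeR 4.0.16 TMM scaling, R 4.3.3), with 1 mean for each of 16 groups and Benjamini-Hochberg adjustment over all genes. A call needed an adjusted p below 0.05 and a log2FC of at least 1 in size (769 genes higher and 204 lower). Differences between smoke effects were interaction terms, called at an adjusted p below 0.05. Scripts were tested on simulated data. Counts of library pairs within a group differed beyond sampling noise, so none was merged. Genes were named by rule: the 10 largest changes each way without overlap, the 5 smallest p each way, the first 3, the extremes and up to 4 further members of each function list, the first 2 of each marker list and the 3 smallest p each way of each difference. The members and lists were chosen with earlier results of these data known. Alternatives were edgeR, DESeq2 1.42.0, other filters, scalings, weights and sets of libraries, leaving out each library, and, chosen after seeing the data, leaving out PBS.AIR replicates 7 to 10.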

Additional observations from a re-analysis of the deposited data

Results flagged for a closer look

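Values far from the rest of their group were found by Dixon's ratio, the gap between the highest or lowest library and its nearest neighbour over the range of the 10 libraries. Of 358 sets of 10 libraries (each gene with a smoke effect given above in each of 2 groups), 61 had a ratio above its 95% critical value, 37 in PBS.AIR and 24 in PBS.CS. That value is meant for normally distributed values, which CPM need not be, and the sets share the same libraries. The number flagged is thus a description and cannot be set against a rate from chance. In each item below the level of the library stands first, in CPM, with that of its nearest neighbour in parentheses. PBS.AIR replicate 7 held 25 of these values and PBS.CS replicate 9 held 18, so these values fell mostly on the same libraries that stood apart above.

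Among macrophage and lysosomal genes, PBS.AIR replicate 7 had Gpnmb at 88.91 (40.63), Trem2 at 17.43 (7.106), Plin2 at 209.3 (182.3), Msr1 at 20.55 (12.39), Cd68 at 81.71 (54.69), Spp1 at 222 (120.8), Ctsk at 152.9 (85.4), Ctsd at 1180 (870.6), Ctsb at 504.2 (416.5), Acp5 at 37.4 (21.15), Psap at 1349 (1019), Ctsz at 201.7 (158.3), Chil3 at 803.3 (602), Cd200r2 at 0.4932 (0.1475) and Plet1 at 121.4 (96.97). Among genes of immunity and epithelium it had Orm1 at 5.179 (2.795), C3ar1 at 9.207 (6.066), Ackr1 at 1.439 (0.5752), Jchain at 256.6 (79.44), Muc5b at 36.66 (22.72), Awat1 at 1.11 (0.1713), Spink5 at 0.08221 (0.04282), Vnn1 at 17.22 (5.076), Lemd1 at 1.809 (0.5951) and Pigr at 218.1 (111.2). Among macrophage, lysosomal and chemokine genes, PBS.CS replicate 9 had Lgals3 at 898.7 (678.9), Atp6v0d2 at 416.2 (332.6), Acp5 at 100.4 (72.32), Ctsz at 539.5 (400.5), Ccl9 at 388.6 (255.7), Ccl6 at 3473 (2340), Il18 at 72.27 (43.5), Retnla at 899 (671.5), Chil3 at 2566 (1918) and Siglecf at 44.45 (32.79). Among epithelial, endothelial and other genes it had Mgst1 at 799.5 (483.8), Hp at 1704 (1374), Sftpc at 18990 (14560), Fbln5 at 89.22 (103.9), Vegfa at 422.5 (661.9), Scgb1a1 at 59870 (32920), Scgb3a2 at 1755 (759.4) and Bace1 at 15.58 (20.78).

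The remaining values were spread over other libraries. PBS.AIR replicate 1 had Sftpc at 21860 (17030). PBS.AIR replicate 10 had Retnla at 218 (108.1). PBS.AIR replicate 3 had Cidec at 18.58 (15.13). PBS.AIR replicate 4 had Gbp3 at 91.62 (67.11) and Prf1 at 20.2 (14.26). PBS.AIR replicate 5 had Serpina1a at 4.517 (3.521). PBS.AIR replicate 9 had Serpina3n at 30.88 (20.67), Il1b at 42.95 (28.52), Il1r2 at 4.953 (2.918), S100a8 at 140.7 (81.64), S100a9 at 295.8 (161.9) and Mcpt4 at 2.582 (1.759). PBS.CS replicate 10 had Tiparp at 76.89 (67.67) and Klf9 at 84.24 (64.53). PBS.CS replicate 5 had Lcn2 at 706.5 (1259), Orm1 at 9.149 (18.06), C1qa at 58.4 (82.51) and Prf1 at 5.935 (3.727). What sets any of these libraries apart was not tested.

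The smoke effect differed from that of another setting by the test of the difference itself in 680 genes against airway, in 588 against dexamethasone and in 6569 against HDM.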

How the results depend on the processing

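The share of genes called depended most on the limits of the call. Of the genes tested, 4.21% were called higher and 1.12% lower, which became 17.7% and 18.2% with no limit on log2FC and 0.937% and 0.0548% with a limma test against a log2FC of 1. With a filter of at least 10 CPM in 9 libraries, which left 12187 genes, 2.86% were called higher and 0.353% lower, and 3.18% differed from airway. DESeq2 gave 5.67% that differed from airway and 4.93% from dexamethasone, and sample quality weights gave 7.46% from dexamethasone. The causes were not tested, apart from the smaller number of genes under the stricter filter. Leaving out each of the 20 libraries gave 3.97% to 4.5% higher, 1.07% to 1.29% lower, 2.3% to 4.11% different from airway, 2.09% to 4.26% from dexamethasone and 34.2% to 36.9% from HDM. Col3a1 and Cd3e, which did not pass, changed sign when a single library was left out (Col3a1 -0.004621 to 0.09647 and Cd3e -0.0134 to 0.1191, the low ends without PBS.AIR replicate 9 and PBS.CS replicate 9). For the genes with a smoke effect given in the text, 1722 values under the processing alternatives kept their direction and side of the threshold, 19 no longer passed, 21 newly passed and 3 changed sign; over the leave-one-out fits these numbers were 3542, 31, 5 and 2. The 3 were genes that did not pass, with PBS.AIR replicates 7 to 10 left out (Ccr2 -0.070, Col3a1 -0.0905 and Arntl -0.2095), and 1.73% of genes then differed from dexamethasone, an alternative chosen after seeing the data. Counts of list members that rose or fell stayed within 1.5 times in 452 cases and moved further in 48 under the processing alternatives, and in 978 and 22 over leave-one-out. Of these 70 moved counts, 60 were of 3 genes or fewer. With the filter of 10 CPM the members that rose were 10 for cell cycle in place of 16, 3 for endothelial in place of 5 and 2 for hypoxia in place of 4. Another scaling (DESeq2 size factors) moved the median log2FC of all genes from 0.00 to -0.011. The alternative without libraries that go against their tissue label could not be run, since there were none. No paired analysis was possible because the labels give no replicate numbers, do not say that their library codes mark a shared mouse or day, and the numbers used here only name the libraries. At these depths genes near 1 CPM rest on few counts, which limits their precision.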
